A study of Mus musculus with 22 samples.

Results

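Imprinted genes that act on growth, Mest, Peg3, Dlk1, Igf2, H19, Meg3, Grb10, Plagl1, Cdkn1c and Igf2r, were followed in mouse inguinal white adipose tissue (IWAT). They were picked by symbol, as 10 of the 23420 genes in the deposited count table. The question was how their RNA levels differed between lean and obese mice, and between tumor-associated and control fat pads. An imprinted gene is transcribed mainly from the copy inherited from 1 parent. Many such genes set body size and the mass of fat and muscle, and several of those copied from the father (Igf2, Mest, Dlk1) are known to favor growth, whereas several copied from the mother (H19, Igf2r, Cdkn1c, Grb10) are known to restrain it. In adipose tissue, Mest is a known correlate of fat mass expansion, and Dlk1 is known as the preadipocyte factor that keeps precursors from maturing. The counts are sums over both parental copies, so that the parent of origin was not measured.

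All mice were wildtype C57Bl/6 females of about 20 weeks of age. Lean mice had eaten a chow diet and obese mice a high fat diet for 16 weeks, when E0771 cells, a C57Bl/6 breast cancer line, were placed with Matrigel in the left pad (tumor-associated IWAT) and Matrigel without cells in the right pad (control IWAT). Pads were collected 2 weeks later, and the visible tumor with the fat covering it was cut away first. The 22 libraries came from 5 lean mice (numbered 0, 2, 3, 6 and 9) and 6 obese mice (0, 1, 2, 3, 4 and 8), each giving 1 library per pad. The model is 1 injected line at 1 time point, and diet and obesity cannot be told apart in it. Because whole tissue was sequenced, fewer cells of a type and less RNA per cell cannot be told apart either.

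The libraries held between 5759775 and 8598108 reads counted on genes. All 10 adipocyte markers examined (Adipoq, Plin1, Lep and others) were detected in every group, with summed levels of 22348 to 28521 CPM (counts scaled to library size) in lean control, 13430 to 22077 in lean tumor-associated, 26436 to 48051 in obese control and 3416 to 21914 in obese tumor-associated IWAT. Some libraries stood apart. The obese tumor-associated libraries of mice 4, 2 and 0 had summed levels of 1000, 509 and 441 CPM on 10 germline and embryonic genes that an earlier look at these libraries had picked, whereas the other 19 libraries had 0.348 to 172 CPM. Among those 19, every obese control (5.99 to 85.7 CPM) lay above every lean control (0.348 to 2.45 CPM), and lean tumor-associated libraries had 0.622 to 9.09 CPM. The library of obese tumor-associated mouse 4 also held the least adipocyte signal, 3416 CPM. The control library of obese mouse 1 had 2246 CPM on 6 skeletal muscle genes, against 13.7 to 40.5 CPM in the other obese controls. The control libraries of obese mice 1 and 3 had 364 and 334 CPM on 5 B and T cell markers, and the other obese controls had 1.69 to 9.67 CPM.

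Of the 10 genes, 9 had enough reads to be tested, and Dlk1 had not. Genes were tested with edgeR's quasi-likelihood test in 1 fit of all 22 libraries, and a change was called at a Benjamini-Hochberg adjusted p under 0.05 over 14458 genes. In obese against lean control IWAT, 3 of the 9 were called, Mest and Peg3 higher and Cdkn1c lower, where 17.1% of all tested genes were called. In obese tumor-associated against obese control IWAT, 5 of 9 were called, Meg3 higher and Mest, Peg3, Plagl1 and Cdkn1c lower, a share close to the 54.5% called among all genes. In obese against lean tumor-associated IWAT, 3 of 9 were called, Mest higher and Igf2 and Cdkn1c lower, below the 47% of all genes. In lean mice no member was called between the pads at the background of 4.18%, and 2 had an unadjusted p under 0.05, as had at least 1942 of the 14458 genes. DESeq2 also called none there. No member was called for a difference between obese and lean mice in the change from control to tumor-associated pad, where 4.92% of all genes were called. There 5 members had an unadjusted p under 0.05, as had at least 4677 of the 14458 genes. DESeq2 called 3 members (Mest, Peg3 and Cdkn1c), beside 2364 of 14850 genes. The comparisons share samples, since each group enters 2 of them and all groups enter the last. The median log2 fold change of the 9 genes was 0.22 in obese against lean control IWAT, beside 0.04 over all tested genes, and -0.32 beside -0.02 in obese tumor-associated against control IWAT.

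**Figure D1:**
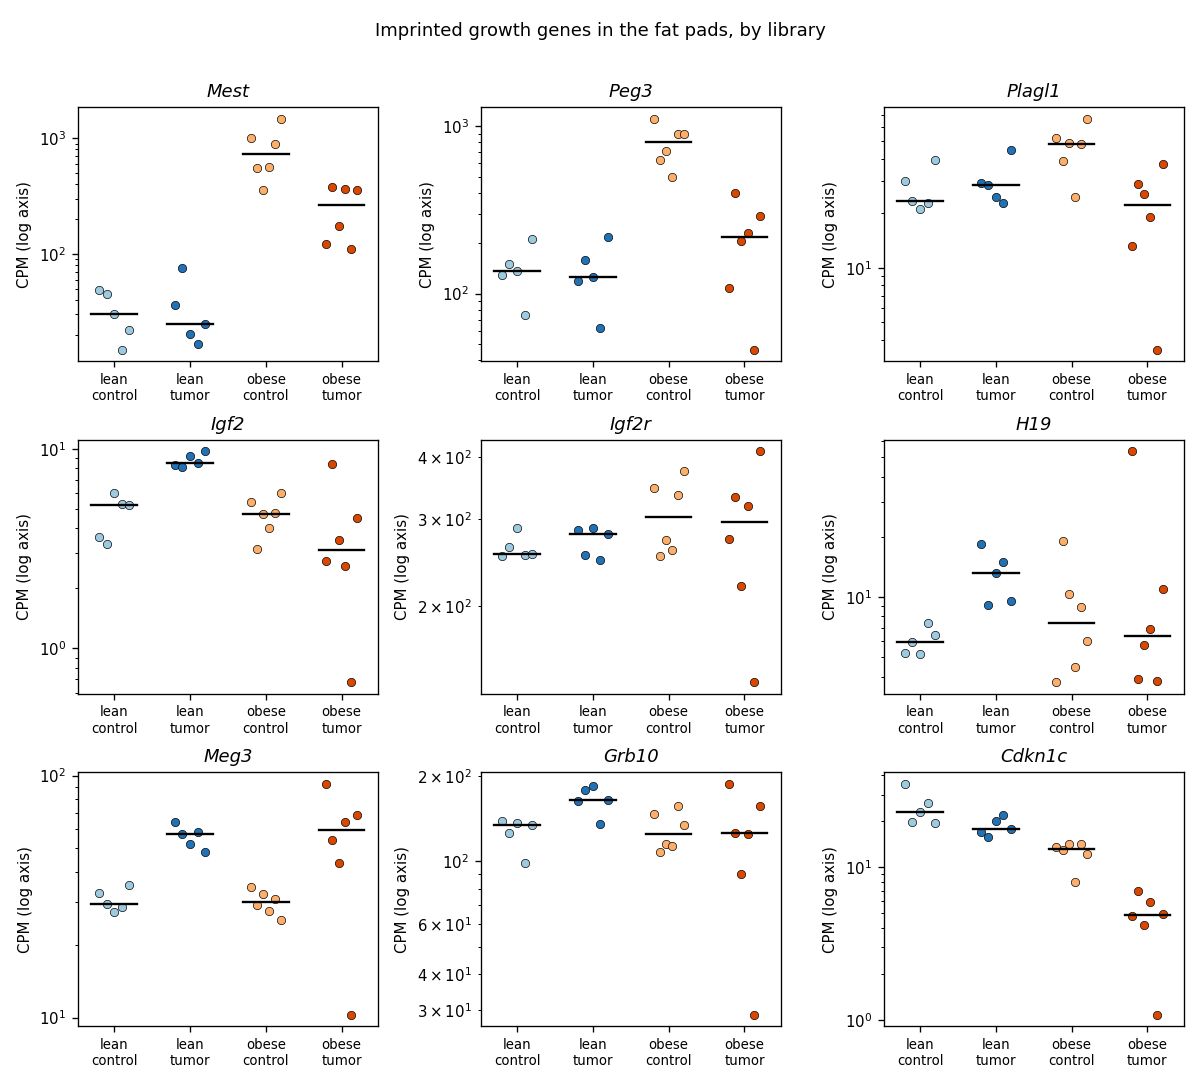
CPM (log axis) of the 9 tested genes in each library, with 5 lean or 6 obese mice per group as points and the group median as a bar. All obese control points for Mest (356 to 1474 CPM) lie above all lean points (14.8 to 75.2 CPM), and obese tumor-associated mouse 4 is the lowest point of its group for 9 of 9 genes.

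**Figure D2:**
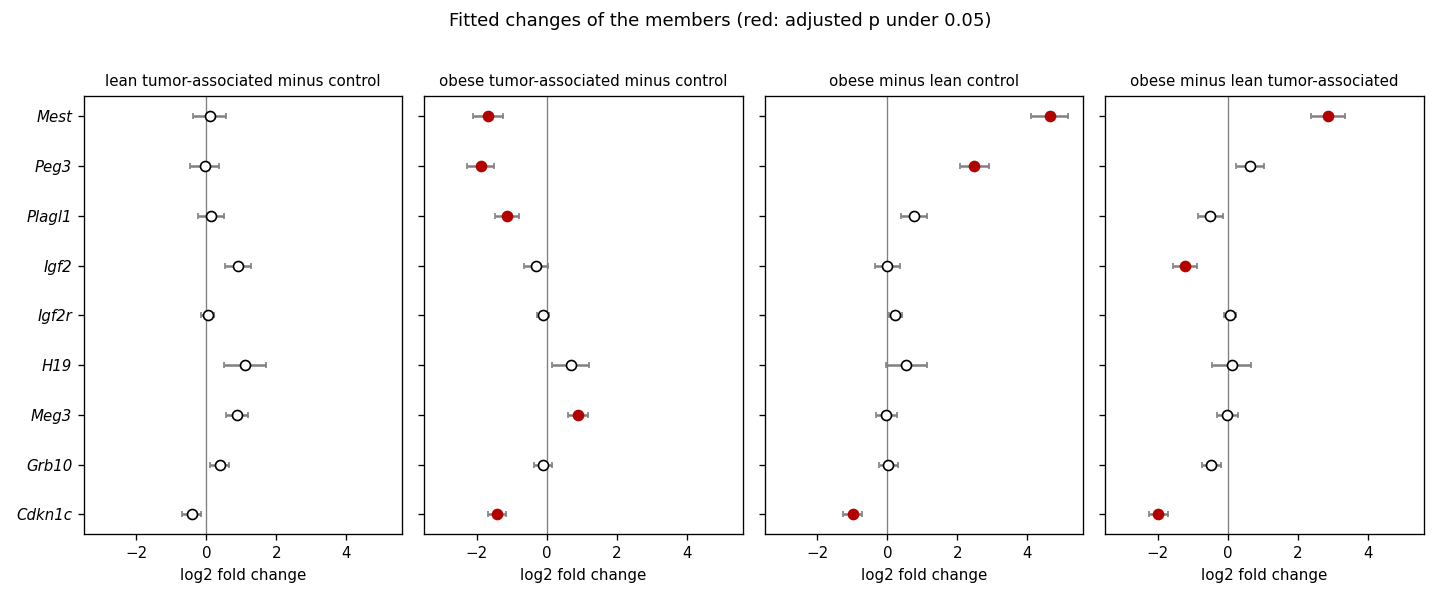
Log2 fold change with its standard error for each gene in 4 comparisons, from 1 fit of 22 libraries, with filled red points at an adjusted p under 0.05. Mest stands at 4.64 in obese against lean control IWAT and at -1.69 in obese tumor-associated against obese control IWAT.

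Mest encodes a protein of the alpha/beta hydrolase family that resides in the endoplasmic reticulum, and it is copied from the paternal chromosome. The gene lies at chr6:30723547-30748465 on the plus strand (GRCm38). In lean control IWAT it had 48.8, 44.8, 30.5, 14.8 and 22.04 CPM in mice 0, 2, 3, 6 and 9. Obese control IWAT ranged from 356 to 1474 CPM with a median of 728 CPM. The groups did not overlap, and the lowest obese control library was several times above the highest lean one. The log2 fold change was 4.64 ± 0.53 (SE, n = 6 and 5, edgeR adjusted p = 1.33e-05), and it ranked 25 of 14458 genes by size and 18 by p. Per kilobase of exon, Mest had the highest median level of the 10 genes in obese control IWAT (262 CPM per kb), whereas in lean control IWAT 4 of the others were above it (11.0 CPM per kb for Mest).

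The tumor-associated pads showed another pattern for Mest by diet. Lean tumor-associated IWAT had 36.0, 75.2, 20.4, 16.7 and 24.9 CPM in mice 0, 2, 3, 6 and 9, within a range that overlapped the control pads. The change in lean mice was 0.10 ± 0.47 (log2, SE) with a 95% interval from -0.83 to 1.02 (adjusted p = 0.989). Obese tumor-associated IWAT ranged from 110.0 to 382 CPM with a median of 264 CPM, and Mest was lower in the tumor-associated pad of 6 of 6 obese mice. The difference between the pads within a mouse ran from -3.05 to -0.54 (log2), and the fitted change was -1.69 ± 0.43 (adjusted p = 0.0026). Without the tumor-associated libraries of obese mice 0, 2 and 4 the change was -1.15 and no longer called (adjusted p = 0.0694). Between the tumor-associated pads, Mest was 2.86 ± 0.48 (log2) higher in the obese mice (adjusted p = 0.000125), and these groups did not overlap. The difference between obese and lean mice in the pad change was -1.79 ± 0.63 and missed the threshold (adjusted p = 0.072); it was called without obese tumor-associated mouse 1 (adjusted p = 0.0373).

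Adipocyte markers moved with Mest between the pads of obese mice, and a few of them with the diet difference. In obese tumor-associated IWAT all 10 adipocyte markers were called lower than in obese control IWAT, where 54.5% of all genes were called (median log2 fold change -1.44, against -0.02 over all genes). Mest per 1000 CPM of the summed adipocyte markers was 11.1 to 30.7 (median 21.4) in the control pads of obese mice and 13.2 to 32.2 (median 20.5) in their tumor-associated pads. On this scale the 2 pads of obese mice covered nearly the same range. Lean libraries had 0.661 to 2.06 in control and 1.13 to 4.36 in tumor-associated IWAT, and thus stayed below every obese library. Between obese and lean control IWAT 2 of 10 adipocyte markers were called higher, Lep (2.61 ± 0.39, log2) and Cidec (1.32 ± 0.36), and none lower, where 17.1% of all genes were called. The summed markers had medians of 35764 CPM in obese and 23724 CPM in lean control IWAT. Their part in the Mest differences was not tested.

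CpG is the dinucleotide at which imprinted genes carry their parental methylation mark. The 250 bases before 1 of the start sites of Mest in RefSeq (GRCm38.p6), chr6:30737800-30738049 on the plus strand, hold 14 CpG, where 32851 promoter windows of this length had a median of 6 and an upper quartile of 16. Of the other Mest windows, chr6:30733256-30733505 holds 7 CpG and chr6:30737803-30738052, nearly the same stretch as the first, holds 14. The window at chr6:30737800-30738049 is shown because Mest had the largest change of the 10 genes. Capitals mark a GC box (GGGCGG, or CCGCCC on the other strand), which 32.7% of all windows hold.

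Mest upstream: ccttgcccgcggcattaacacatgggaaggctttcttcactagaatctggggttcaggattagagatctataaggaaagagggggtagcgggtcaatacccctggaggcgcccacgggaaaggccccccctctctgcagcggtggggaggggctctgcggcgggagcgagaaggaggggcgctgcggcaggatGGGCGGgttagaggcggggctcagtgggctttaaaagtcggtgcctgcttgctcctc

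A microRNA, miR-335, lies within the Mest gene. The libraries were made after removal of ribosomal RNA and do not measure mature microRNAs, so a count on this row is a read over the precursor's position. Lean control libraries had 0, 3, 0, 0 and 0 counts in mice 0, 2, 3, 6 and 9, lean tumor-associated libraries 1, 8, 0, 1 and 0, obese control libraries 2 to 37, and obese tumor-associated libraries 1 to 12. These counts are few and the groups overlapped. The library with the highest Mest level, obese control mouse 8 (1474 CPM), also had the 37 counts. The mature 5p form from RefSeq (chr6:30741314-30741336, plus strand) is given with the seed, bases 2 to 8, in capitals.

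mmu-miR-335-5p: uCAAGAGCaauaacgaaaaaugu

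The gene with the pattern most like that of Mest over the 22 libraries was Sfrp5, a secreted Wnt inhibitor, with a Pearson r of 0.97 on log2 CPM among 14457 genes compared. After the group means were removed, r was 0.80. The libraries share mice in pairs and their depth, and r is given as a description. Sfrp5 had at most 11.7 CPM in lean control and 147 to 462 CPM in obese control IWAT, and obese control mouse 8 was the highest library for Sfrp5 as it was for Mest. Its log2 fold change was 5.07 ± 0.60 between the control pads (adjusted p = 1.52e-05) and -1.37 ± 0.46 between the pads of obese mice (adjusted p = 0.0167). Crtac1 (r = 0.97), Ryr2 (r = 0.97), a calcium release channel, Lipf (r = 0.96), a lipase, and Prps1 (r = 0.95), an enzyme of nucleotide synthesis, came next. Of 4 genes known to vary with Mest in expanding fat (Sfrp5, Bmp3, Nkd1 and Npr3), 3 were called higher with obesity in the control pads, beside 17.1% of all genes. All 4 were called lower in obese tumor-associated than in obese control IWAT, where 54.5% of all genes were called. This list was chosen with results of these data known and is no independent evidence.

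**Figure D3:**
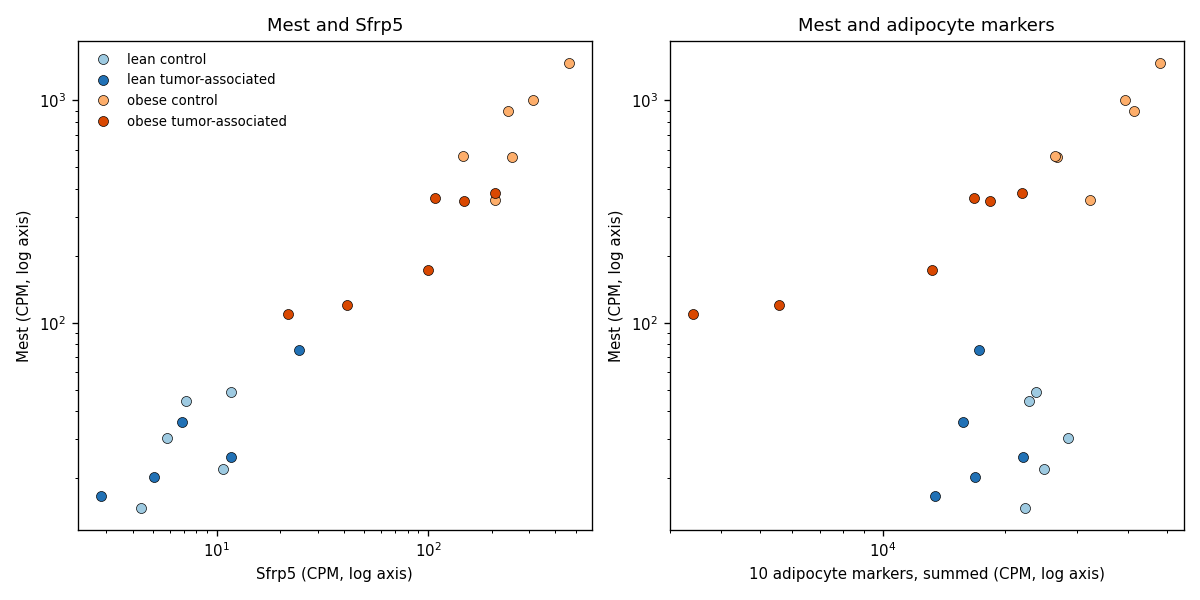
Mest CPM in each of the 22 libraries against Sfrp5 CPM (left) and against the summed CPM of 10 adipocyte markers (right), all axes logarithmic, colored by group. On the left the libraries lie along 1 band (r = 0.97). On the right lean and obese libraries form separate bands at like adipocyte levels.

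Peg3, a paternally expressed zinc finger protein, followed Mest in direction. It lies at chr7:6703892-6730431 on the minus strand (GRCm38). Lean control libraries had 130, 151, 137, 74.3 and 213 CPM in mice 0, 2, 3, 6 and 9, and lean tumor-associated libraries 119, 159, 126, 62.7 and 217 CPM in the same mice. The pads of each lean mouse were thus close to each other, while the mice differed. Obese control IWAT ranged from 499 to 1108 CPM (median 807 CPM) and did not overlap the lean controls. The log2 fold change was 2.49 ± 0.42 (adjusted p = 0.000497). Obese tumor-associated IWAT ranged from 46.1 to 397 CPM (median 219 CPM), below every obese control library, and was lower in 6 of 6 mice (-1.89 ± 0.39, adjusted p = 0.00053). In lean mice the pad change was -0.04 ± 0.41 (adjusted p = 0.996). The difference between the diets in the pad change, -1.85 ± 0.56, lay just past the threshold (adjusted p = 0.0548) and was called in 5 of the 22 fits that left out 1 library. Obese and lean tumor-associated IWAT differed by 0.64 ± 0.40 (adjusted p = 0.191), and by 0.85 (adjusted p = 0.0451) without obese tumor-associated mouse 4.

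Against the adipocyte markers, Peg3 showed a smaller pad difference in obese mice. Peg3 per 1000 CPM of adipocyte markers was 18.8 to 28.2 in the control and 13.5 to 19.4 in the tumor-associated pads of obese mice, and 3.32 to 8.53 in lean control and 4.67 to 9.81 in lean tumor-associated IWAT. Obese libraries stayed above lean ones, and the ranges of the obese pads met only at their ends. Over the 22 libraries, Peg3 and Mest had a Pearson r of 0.82, and 0.65 after the group means were removed. The genes most like Peg3 were Rap1gap2 (r = 0.98) and Synpo2 (r = 0.96).

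Plagl1, a paternally expressed zinc finger transcription factor that is known to regulate other imprinted genes, lies at chr10:13060504-13131694 on the plus strand (GRCm38). It had 30.1, 23.3, 21.0, 22.7 and 39.5 CPM in lean control and 29.5, 28.6, 24.7, 22.7 and 44.8 CPM in lean tumor-associated IWAT of mice 0, 2, 3, 6 and 9. Obese control IWAT ranged from 24.6 to 66.5 CPM (median 48.4 CPM) and overlapped the lean controls (0.77 ± 0.37, adjusted p = 0.155). That comparison was called when only its 2 groups were fitted (adjusted p = 0.0305) and without obese tumor-associated mouse 4 (adjusted p = 0.038). In obese tumor-associated IWAT Plagl1 ranged from 3.52 to 37.4 CPM (median 22.2 CPM) and was lower in 6 of 6 mice (-1.13 ± 0.35, adjusted p = 0.0102). Without the tumor-associated libraries of obese mice 0, 2 and 4 the change was -0.72 (adjusted p = 0.063). Plagl1 per 1000 CPM of adipocyte markers had medians of 1.36 and 1.62 in the control and tumor-associated pads of obese mice. Its pattern was closest to those of Crybg3 (r = 0.95) and Dmd (r = 0.94), and its r with Peg3 was 0.74.

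**Figure D4:**
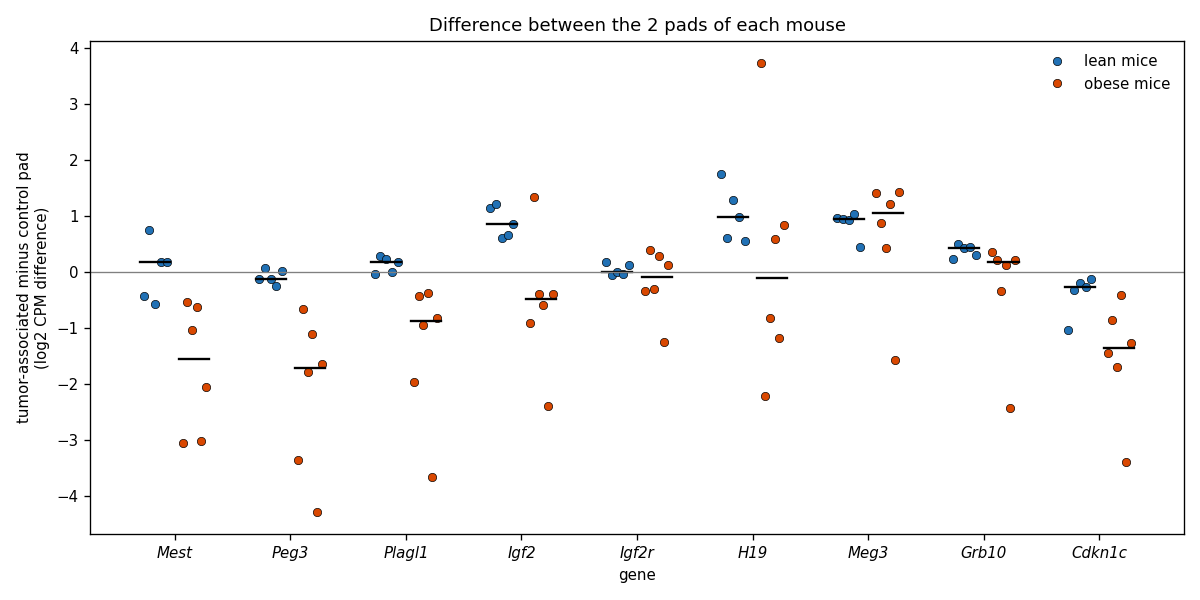
Difference in log2 CPM between the tumor-associated and the control pad of each mouse for 9 genes, with lean mice (n = 5) in blue, obese mice (n = 6) in orange and bars at the medians. Mest, Peg3, Plagl1 and Cdkn1c lie below 0 in 6 of 6 obese mice, and Igf2, H19, Meg3 and Grb10 lie above 0 in 5 of 5 lean mice.

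Igf2, H19 and Igf2r belong to the IGF2 branch. Igf2, the paternally expressed growth factor, was low: 3.60, 3.32, 5.97, 5.28 and 5.26 CPM in lean control and 8.33, 8.08, 9.24, 8.50 and 9.73 CPM in lean tumor-associated IWAT of mice 0, 2, 3, 6 and 9. The 2 lean pads did not overlap and 5 of 5 mice had more in the tumor-associated pad, yet the change was not called (0.90 ± 0.37, adjusted p = 0.202). Fitted with the lean groups alone, it was (0.89, adjusted p = 0.0142). Obese controls had 3.16 to 6.01 CPM (median 4.73 CPM), not distinguishable from lean controls (-0.00 ± 0.36, 95% interval from -0.70 to 0.69). Obese tumor-associated IWAT had 0.676 to 8.41 CPM (median 3.12 CPM), which was called lower than lean tumor-associated IWAT (-1.23 ± 0.35, adjusted p = 0.0071). Without the tumor-associated libraries of obese mice 0, 2 and 4 that difference was -0.76 (adjusted p = 0.0593). Against the obese control pads the change was -0.32 ± 0.34 (adjusted p = 0.442), and without tumor-associated mouse 1, the highest library of its group, it was -0.74 and called (adjusted p = 0.0376). Igf2 lies at chr7:142650766-142666816 on the minus strand, and its exons overlap those of an annotated read-through gene, Gm49394, so that part of its reads may have been left uncounted.

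H19, the maternally expressed long noncoding RNA next to Igf2 (chr7:142575529-142578143, minus strand), had 5.23, 5.95, 5.21, 7.39 and 6.44 CPM in lean control and 18.3, 9.17, 13.2, 14.9 and 9.58 CPM in lean tumor-associated IWAT of mice 0, 2, 3, 6 and 9. These groups did not overlap either, and the change was 1.11 ± 0.61 (adjusted p = 0.398), or 1.10 with an adjusted p of 0.0116 when the lean groups were fitted alone. Obese tumor-associated IWAT ranged from 3.79 to 53.6 CPM, and obese control IWAT from 3.75 to 10.4 CPM in 5 of 6 mice. Neither differed from its lean counterpart beyond the threshold. Obese control mouse 1 was the highest of its group with 133 counts, against 23 to 84 in the others; this is the library with 2246 CPM on skeletal muscle genes, a tissue known to express H19. The part of muscle in its value was not tested. The 53.6 CPM came from tumor-associated mouse 0, and the next highest library of its group had 11.0 CPM. Without the tumor-associated library of obese mouse 0, obese tumor-associated IWAT was called lower than lean tumor-associated IWAT (-1.06, adjusted p = 0.0278), whereas with it the difference was 0.11 ± 0.56.

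Igf2r, the maternally expressed receptor that removes IGF2 by lysosomal uptake, was not called in any of the comparisons. It lies at chr17:12682406-12769664 on the minus strand. Levels were 252, 263, 288, 254 and 255 CPM in lean control and 284, 253, 288, 248 and 280 CPM in lean tumor-associated IWAT of mice 0, 2, 3, 6 and 9. Obese controls had 253 to 375 CPM and obese tumor-associated pads 140.3 to 411 CPM. All groups overlapped, and its log2 fold changes ran from -0.12 to 0.22 over the 4 comparisons between groups. Without obese tumor-associated libraries 0, 2 and 4, the comparison of tumor-associated pads was called, with Igf2r higher in the obese mice (0.39, adjusted p = 0.0272). The interval of the largest, between the control pads, was -0.13 to 0.58. Per kilobase of exon, Igf2r had the highest median of the 10 genes in lean control IWAT (28.7 CPM per kb), while Igf2 ranked 9 of 10 in each group at 0.594 to 1.62 CPM per kb. Igf2r and its neighbors in that order in lean control IWAT, Grb10 (26.2 CPM per kb) and Peg3 (15.8 CPM per kb), had ranges of 28.4 to 32.4, 19.2 to 27.1 and 8.54 to 24.5 CPM per kb, of which the last pair overlapped.

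Grb10, the adaptor protein that damps signaling from the insulin and IGF1 receptors and is maternally expressed in most tissues outside the brain, lies at chr11:11930508-12038683 on the minus strand. It had 139, 126, 137, 98.6 and 134 CPM in lean control and 163, 178, 184, 135 and 165 CPM in lean tumor-associated IWAT, and 5 of 5 mice had more in the tumor-associated pad (0.38 ± 0.28, adjusted p = 0.618). Obese controls ranged from 108 to 157 CPM and obese tumor-associated pads from 28.8 to 188 CPM. The lowest value was that of mouse 4, and the other 5 libraries of this group had at least 90.4 CPM. No comparison of Grb10 was called.

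Of 21 other genes of the IGF axis, 19 could be tested. Igf2bp2, which binds Igf2 mRNA, was called higher with obesity in the control pads (1.68 ± 0.44 on the log2 scale, adjusted p = 0.0131), as was Igfbp3, an IGF carrier (1.56 ± 0.27, adjusted p = 0.000611), while Irs1, the adaptor that carries the signal from insulin and IGF1 receptors, was called lower (-1.35 ± 0.30, adjusted p = 0.00468). These 3 of 19 compare with 17.1% over all genes. Between the pads of obese mice 2 were called higher and 7 lower, 9 of 19 where 54.5% of all genes were called. Igf2bp2 (2.60 ± 0.38) and Pappa2, a protease that frees IGF from its carriers (2.00 ± 0.61), were higher, and Igfals, the stabilizer of circulating IGF complexes, was lower (-1.70 ± 0.34). Between tumor-associated pads of obese and lean mice 3 were called higher and 7 lower, where 47% of all genes were called, with Igf2bp2 at 3.95 ± 0.45 and Stc2 at -2.34 ± 0.49. None was called between the pads of lean mice by edgeR or DESeq2, with 0 at an unadjusted p under 0.05, and 1, Igf2bp2, was called for a difference in the pad change between the diets (2.27 ± 0.61, adjusted p = 0.0463), a call kept in 5 of 22 fits that left out 1 library.

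Dlk1 and Meg3 are neighbors on chromosome 12 and are expressed from opposite parental copies. Dlk1 (chr12:109452823-109463336, plus strand), the preadipocyte factor, was barely detected, with 0 to 12 counts per library and 76 counts in all 22. It was at 0 in 4 libraries, all of them from obese mice, and in these a count of 0 allows up to 0.406 to 0.490 CPM, depending on the library. In mice 0, 2, 3, 6 and 9 it had 4, 4, 3, 8 and 2 counts in lean control and 12, 5, 6, 3 and 7 counts in lean tumor-associated IWAT. Obese controls had 0 to 4 counts and obese tumor-associated pads 0 to 5 counts. With no filter on low counts, Dlk1 was lower with obesity in the tumor-associated pads (-1.75 ± 0.66, adjusted p = 0.0442) and the comparison of control pads was not called (-1.47 ± 0.71, adjusted p = 0.193). At this depth these values rest on few reads.

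Meg3, a maternally expressed long noncoding RNA (chr12:109541001-109571726, plus strand), was higher in the tumor-associated pad of 5 of 5 lean and 5 of 6 obese mice. Its exons overlap those of Gm26906 on the opposite strand by up to 802 bases, where reads cannot be told apart. Lean control libraries had 32.7, 29.4, 27.3, 28.5 and 35.4 CPM and lean tumor-associated libraries 64.4, 57.2, 52.0, 58.6 and 48.2 CPM in mice 0, 2, 3, 6 and 9. All 5 tumor-associated values lay above all 5 control values, with a log2 fold change of 0.87 ± 0.31 that was not called (adjusted p = 0.135). It was called without obese tumor-associated mouse 4 (0.86, adjusted p = 0.0019) and with the lean groups fitted alone (0.85, adjusted p = 0.0024). Obese controls had 25.2 to 34.6 CPM (median 30.2 CPM), overlapping lean controls (-0.03 ± 0.30). Obese tumor-associated pads had 10.3 to 92.7 CPM (median 59.3 CPM), higher in 5 of 6 mice, with mouse 4 the exception. The change was called (0.89 ± 0.28, adjusted p = 0.012). With the mouse as a block it was 0.71 and not called (adjusted p = 0.0745), and it was likewise not called with the obese groups fitted alone (adjusted p = 0.0585). Without the tumor-associated libraries of obese mice 0, 2 and 4 it was 1.05 (adjusted p = 9.2e-06).

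The pad difference of Meg3 moved with macrophage and some fibroblast markers. In lean mice 3 of 10 markers of adipose progenitors and fibroblasts and 5 of 7 macrophage markers were called higher in the tumor-associated pad, and in obese mice 3 of 10 (with 1 lower) and 6 of 7. Over all genes 4.18% were called in lean and 54.5% in obese mice. In both diets the 3 fibroblast markers were Col1a1, Col1a2 and Thy1, of which the first pair encodes collagen I. Dcn, which encodes a matrix proteoglycan, was the marker called lower in obese mice (-0.89 ± 0.33). The median log2 fold change of the 10 fibroblast markers was 0.62 in lean and -0.12 in obese mice. Summed fibroblast markers were 3108 to 4560 CPM in lean control against 5565 to 7831 CPM in lean tumor-associated IWAT, and 2898 to 5033 against 1952 to 8704 CPM in obese mice. Their part in the Meg3 difference was not tested. The genes most like Meg3 over the 22 libraries were Dpysl3 (r = 0.97) and Fn1 (r = 0.94), which encodes fibronectin. Rian, the next maternally expressed noncoding RNA on the same strand, 32.2 kb beyond Meg3, was called higher in obese tumor-associated than obese control IWAT (1.31 ± 0.32, adjusted p = 0.00215) and stood at 1.19 in lean mice (adjusted p = 0.0629).

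The window upstream of 1 of the Meg3 start sites (chr12:109540746-109540995, plus strand, RefSeq GRCm38.p6) is shown. Meg3 was chosen because it was called higher in obese tumor-associated than obese control IWAT, the comparison in which Mest was called lower. Capitals mark a cyclic AMP response element (TGACGTCA, the same on both strands), which starts 57 bases before the transcript and occurs in 1.55% of the 32851 windows. Among the 15 windows held for 8 members (none for H19 and Cdkn1c), 1 other, that of Peg3, held this motif. No GC box lies in the Meg3 window shown, and the other Meg3 window, chr12:109545148-109545397, holds neither motif. The 2 motifs cannot overlap in these windows since no window held both.

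Meg3 upstream: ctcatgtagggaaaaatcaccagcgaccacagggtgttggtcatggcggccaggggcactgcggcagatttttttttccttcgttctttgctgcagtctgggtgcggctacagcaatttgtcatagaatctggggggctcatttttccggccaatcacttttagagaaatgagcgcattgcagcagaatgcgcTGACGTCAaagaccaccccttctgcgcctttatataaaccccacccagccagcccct

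Cdkn1c, the maternally expressed inhibitor of cyclin-dependent kinases also called p57, was the member called lower with obesity in both pads. It lies at chr7:143458339-143461050 on the minus strand and shares up to 422 exon bases with Gm44732 on the opposite strand, where reads cannot be told apart either. Lean control libraries had 35.4, 19.9, 23.0, 26.4 and 19.5 CPM and lean tumor-associated libraries 17.1, 15.9, 20.1, 21.9 and 17.9 CPM in mice 0, 2, 3, 6 and 9. Obese controls had 8.00 to 14.3 CPM (median 13.2 CPM), all below the lean controls (-0.99 ± 0.26, adjusted p = 0.0133). Without lean control mouse 0, the highest library, the change was -0.83 and just missed the threshold (adjusted p = 0.0505). Obese tumor-associated pads had 1.08 to 6.98 CPM (median 4.87 CPM), below every library of the other 3 groups. The log2 fold change was -1.42 ± 0.27 against the obese control pads, lower in 6 of 6 mice (adjusted p = 0.000269), and -1.99 ± 0.27 against lean tumor-associated IWAT (adjusted p = 2.33e-05). Both stayed called without the tumor-associated libraries of obese mice 0, 2 and 4 (-1.07 and -1.64). In lean mice 5 of 5 tumor-associated pads had less (-0.42 ± 0.27, adjusted p = 0.527).

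Epithelial and proliferation markers moved with the Cdkn1c differences in the tumor-associated pads. In obese tumor-associated against lean tumor-associated IWAT, 8 of 8 luminal and 5 of 5 basal epithelial markers were called lower and 6 of 6 proliferation genes higher, while 1 of 5 endothelial markers (Tek) was lower. Between the pads of obese mice, 7 of 8 luminal, 4 of 5 basal and 4 of 5 endothelial markers were lower and 6 of 6 proliferation genes higher. These counts stand beside 47% and 54.5% of all genes. In the control pads, 3 of 8 luminal and 1 of 5 basal markers were lower in obese mice, where 17.1% of all genes were called. There edgeR called no proliferation gene (2 of 6 at an unadjusted p under 0.05, and 1 called by DESeq2). The summed endothelial markers went the other way from Cdkn1c in the control pads, with 778 to 1066 CPM in obese and 585 to 676 CPM in lean mice. Of the 5 endothelial markers 1 was called higher (Pecam1, 1.03 ± 0.22), and the mean of Emcn was slightly lower in obese mice (31.6 against 32.3 CPM). The part of all these markers in the Cdkn1c result was not tested. Cdkn1c per 1000 CPM of adipocyte markers was 0.782 to 1.49 in lean control and 0.253 to 0.483 in obese control IWAT, which did not overlap. The tumor-associated pads had 0.812 to 1.63 in lean and 0.268 to 0.867 in obese mice, which met at their ends. On this scale the medians of the obese pads were close, 0.343 in control and 0.319 in tumor-associated IWAT. The patterns most like that of Cdkn1c were those of Homer2 (r = 0.97) and Thra (r = 0.97), the thyroid hormone receptor alpha. The other members had as closest genes Tc2n and Vwf for Igf2 (r = 0.89 each), and Cdh24 (r = 0.68) and AI427809 (r = 0.63) for H19. For Grb10 they were Dsel and Pcsk5 (r = 0.94 each), and for Igf2r Slc36a4 (r = 0.92) and Nptn (r = 0.91).

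Other imprinted genes were examined beside the 10. Of 27 other paternally expressed genes, 26 were in the table and 19 were tested. In obese against lean control IWAT 3 of 19 were called higher and none lower, where 17.1% of all genes were called. The 3 were Peg10 (2.59 ± 0.52 on the log2 scale, adjusted p = 0.00204), Zdbf2 (1.54 ± 0.51, adjusted p = 0.0408) and Nap1l5 (1.04 ± 0.35, adjusted p = 0.0447). Between the pads of obese mice 1 was called higher (Gab1) and 7 lower, 8 of 19 where 54.5% of all genes were called, with Peg10 at -1.90 ± 0.47 and Nnat at -1.86 ± 0.53. In tumor-associated IWAT 6 were lower in obese than in lean mice and none higher, beside 47% of all genes, and none was called between the pads of lean mice by edgeR or DESeq2, with 0 at an unadjusted p under 0.05. The median log2 fold changes of the 19 genes were 0.11 between control pads and -0.54 between the pads of obese mice, beside 0.04 and -0.02 over all tested genes.

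Of 30 other maternally expressed genes, 24 were tested. Between control pads 5 were called higher and 1 lower (Ano1, -0.84 ± 0.23) in obese mice, where 17.1% of all genes were called. The largest differences were those of Klf14 (2.70 ± 0.47, adjusted p = 0.000642) and Zim1 (1.96 ± 0.43, adjusted p = 0.00359). Klf14, a transcription factor gene, lies 208 kb from Mest, and Zim1, a zinc finger gene, lies 7.4 kb from Peg3. Both were also lower in obese tumor-associated than in obese control IWAT, Klf14 at -1.59 ± 0.41 and Zim1 at -1.72 ± 0.39, where 4 maternally expressed genes were called higher and 10 lower, 14 of 24 beside 54.5% of all genes. Copg2, which lies between Mest and Klf14 and whose exons overlap those of Mest on the opposite strand by up to 912 bases, was at -0.18 between the control pads (adjusted p = 0.132). The counting strand is not given in the sources used here, so reads from the overlap of Mest and Copg2 cannot be told apart. In lean mice 1 of the 24 was called between the pads, Tfpi2 (1.45 ± 0.26, adjusted p = 0.00289), beside 4.18% of all genes. Between tumor-associated pads 2 were higher and 7 lower in obese mice, beside 47% of all genes. Of the 5 genes whose expressed parental copy depends on the tissue, none was called between control pads by edgeR or DESeq2 (0 at an unadjusted p under 0.05). Between the pads of obese mice 3 of these 5 were higher and 1 lower, where 54.5% of all genes were called.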

How the data were processed

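RNA was isolated from the IWAT of 22 pads, and ribosomal RNA was depleted before library preparation. The authors trimmed and filtered reads with prinseq, aligned them with STAR 2.4.0f to the mm10 genome and deposited raw counts per gene made with HTSeq. DESeq2 was their test. The annotation and the counting strand are not given in the sources used here. The 5 HTSeq summary lines were left out; reads on no feature made up 38.5 to 48.8% of a library. No 2 libraries of a group agreed within sampling noise.

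Counts were tested with edgeR 4.0.16 (R 4.3.3) in a quasi-likelihood fit of 4 groups without a block, with TMM normalization and the default filter on low counts, and were printed as CPM. Folds are log2 values with standard errors. P-values were adjusted by Benjamini-Hochberg over 14458 genes. Intervals are 95%. The fit was tested on simulated data. Pads with the same number came from 1 mouse, and their deviations from the group means correlated at 0.11 to 0.63 in lean and -0.07 to 0.64 in obese mice, so the mouse was a block in an alternative fit. Other alternatives were DESeq2 1.42.0, upper-quartile normalization, 2 other filters, each comparison's groups fitted alone, and each library left out. Correlations used log2 CPM with a prior count of 2.

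The members and gene lists were chosen with earlier results of these data known. All 10 members are described; from each list the counts called and at most the 4 largest called changes per comparison are named, plus the 5 genes most like Mest and the 2 most like each other tested member. Copg2, Rian and Gab1 were named for their position or as a lone call. Promoter windows and miR-335 came from RefSeq (GRCm38.p6), positions and exon lengths from GENCODE (GRCm38, the same assembly as mm10).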

Additional observations from a re-analysis of the deposited data

Results flagged for a closer look

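In 36 groups of 5 or 6 libraries (9 genes by 4 groups) 2 held a library far from the others by Dixon's test, which chance gives in about 1 of 20 groups. H19 had 53.6 CPM in obese tumor-associated mouse 0, and the nearest library of that group had 11.0 CPM. Cdkn1c had 8.00 CPM in obese control mouse 3, and the nearest library had 12.2 CPM. Mouse 3 is 1 of the 2 obese controls with high B and T cell markers (334 CPM). The other, mouse 1, had 364 CPM on these markers and 12.9 CPM of Cdkn1c.

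In edgeR's interaction test, 3 of 24 other maternally expressed genes and 1 of 19 IGF axis genes differed between obese and lean mice in the pad change. None of 19 other paternally expressed genes and none of 5 with a tissue-dependent parent was called. Among the cell type markers, 1 of 5 endothelial ones was called lower. These counts stand beside 4.92% of all genes. The difference (obese minus lean, log2) was 2.27 for Igf2bp2, 0.76 for Atp10a, -0.49 for Osbpl5 and -2.09 for Zim1, with adjusted p between 0.0463 and 0.0486. Leaving out 1 library at a time kept the call in 5 of 22 fits for Igf2bp2, 5 for Atp10a, 7 for Osbpl5 and 6 for Zim1, and DESeq2 called all 4 (adjusted p from 0.00689 to 0.0147). With the mouse as a block, Igf2bp2 (adjusted p = 0.0364) and Atp10a (0.0238) stayed called, and Osbpl5 (0.0537) and Zim1 (0.0596) did not.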

How the results depend on the processing

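Mest kept its direction and its call between the control pads and between the tumor-associated pads in every alternative run, and so did Peg3 between the control pads, Peg3 and Cdkn1c between the pads of obese mice, and Cdkn1c between the tumor-associated pads wherever it was tested. The counts of members called were less stable. In lean mice, 0 members were called between the pads, beside 605 of 14458 over all genes. With the lean groups fitted alone 3 were called, beside 1437 of 13750 genes. With obese tumor-associated libraries 0, 2 and 4 left out together (chosen after seeing the data) 2 were called, beside 1369 of 14641 genes. With 1 library left out 0 to 1 were called. Between the pads of obese mice 5 were called and 3 without those libraries, beside 7882 of 14458 and 4849 of 14641 genes. Between tumor-associated pads 3 were called, beside 6802 of 14458 genes. With at least 10 counts asked of every library 1 was called, beside 5429 of 11621 genes, and Igf2 and Cdkn1c were no longer tested. For the difference in the pad change 0 were called, and 3 by DESeq2 (Mest, Peg3 and Cdkn1c), beside 2364 of 14850 genes. With 1 library left out 0 to 4 were called, the most without obese tumor-associated mouse 1, where 3568 of 14423 genes were called.

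Over all genes, 605 were called between the pads of lean mice (183 to 952 with 1 library left out, 913 by DESeq2, 1437 with the groups alone, 1369 without libraries 0, 2 and 4), 473 of them higher, and 382 of 581 with upper-quartile normalization. Between the control pads 2468 were called, 1380 of them higher, against 1068 of 2514 with upper-quartile normalization, 1606 without lean control mouse 6 and 4057 without libraries 0, 2 and 4. Without these libraries 4849 (from 7882) were called between the pads of obese mice and 4432 (from 6802) between tumor-associated pads. For the difference in the pad change 711 were called, 1 to 3568 with 1 library left out, 2364 by DESeq2, 18 with no filter and 10 without libraries 0, 2 and 4.

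Some values that no fit or few fits called changed sign. Without libraries 0, 2 and 4, the change between the pads of obese mice was 0.14 for Igf2, -0.28 for H19, 0.065 for Grb10 and 0.20 for Igf2r, the obesity difference in tumor-associated pads was -0.84 for H19 and 0.15 for Meg3, and the difference in the pad change was 0.17 for Igf2r. With upper-quartile normalization the obesity difference was -0.042 for Grb10 in control and -0.016 for Igf2r in tumor-associated pads, and with 10 counts in every library it was -0.0012 for Grb10 in control pads. With the mouse as a block the difference in the pad change of Meg3 was -0.16; the block also ended the call of Meg3 between the pads of obese mice (0.71) and changed no other call of a member. With 1 library left out, the pad change in lean mice ran from -0.41 to 0.30 for Mest, -0.29 to 0.15 for Peg3 and -0.066 to 0.31 for Plagl1, and that in obese mice from -0.49 to 1.05 for H19, -0.30 to 0.071 for Grb10 and -0.26 to 0.0022 for Igf2r. The obesity difference in control pads ran from -0.10 to 0.10 for Igf2, -0.077 to 0.023 for Meg3 and -0.052 to 0.062 for Grb10, that in tumor-associated pads from -1.06 to 0.31 for H19, -0.22 to 0.20 for Meg3 and -0.075 to 0.20 for Igf2r, and the difference in the pad change from -0.18 to 0.24 for Meg3. The cause was not tested. Over all alternatives the adjusted p between the pads of obese mice ran from 0.000254 to 0.0694 for Mest, 0.00349 to 0.063 for Plagl1, 9.2e-06 to 0.0745 for Meg3 and 0.0376 to 0.733 for Igf2, that between control pads from 0.0004 to 0.0505 for Cdkn1c and 0.0272 to 0.28 for Plagl1, that between tumor-associated pads from 0.000234 to 0.0593 for Igf2, 0.0144 to 0.443 for Peg3, 0.0272 to 0.967 for Igf2r and 0.0278 to 0.991 for H19, that in lean mice from 0.0142 to 0.358 for Igf2, 0.0116 to 0.632 for H19 and 0.000157 to 0.292 for Meg3, and that of the difference in the pad change from 0.0368 to 0.322 for Mest and 0.0148 to 0.161 for Peg3. Depth limits Dlk1, Igf2 and Cdkn1c most, with as few as 0, 5 and 8 counts in a library.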
